A study of Caenorhabditis elegans with 2 samples.

Results

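The peaks described here lie in divergent promoters of the 5 autosomes of Caenorhabditis elegans, where genes on opposite strands start close to one another and are read away from each other. They were taken from the optimal set of peaks that the authors kept from both replicates by their IDR step, which sets a threshold by how reproducibly peaks rank between replicates. A peak was a member when at least 1 protein-coding gene on each strand had its annotated start near the summit, with the summit at most 1000 bp before that start or 200 bp after it. The rule used positions and annotation, not signal. It chose 612 of the 2409 peaks (25.4%), which were 40.3% of the 1518 autosomal peaks in any promoter. The other 906 autosomal promoter peaks had starts on 1 strand in their window and are called one-strand peaks, and 566 autosomal peaks lay outside promoters. ChIP-seq, in which chromatin bound to a protein is immunoprecipitated and its DNA sequenced, was done on an eGFP-W03F9.2 fusion in 2 biological replicates of 1 group. The worms were of strain OP215, genotype unc-119(ed3) III; wgIs215, at the L4/young adult stage, as whole organisms with males and females pooled. The labels' antibody field names W03F9.2 and their description names the eGFP fusion, so which epitope was precipitated is not given, nor is the promoter that drives the fusion in the inserted transgene. There was no second condition, so comparisons are between classes of peaks and between the 2 replicates, as descriptions. In whole worms, binding in few cells and weak binding in many cannot be told apart.

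A divergent promoter serves a pair of genes from 1 stretch of DNA, and a protein bound there sits upstream of both. Such head-to-head pairs are frequent in the compact genome of C. elegans. In this species many messenger RNAs also have a spliced leader joined to their 5′ end at a trans-splice acceptor, so that an annotated start can lie downstream of the place where RNA polymerase begins. Acceptors of this kind typically read TTTCAG. In what follows a pair is written with the minus-strand gene first, as in rpl-20/Y17G9B.5, and signal is the authors' own peak signal, in the units of their caller.

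The sequences under the peaks that carry the findings are shown first, from RefSeq WBcel235 (ce11), plus strand. Capitals mark matches, on either strand, to 20 words of 8 bases that were commoner within 50 bp of the members' summits than in their flanks and were chosen for that value. At the 4 strongest members with over 300 bp between the starts whose summit window lay between the starts and held no annotated exon, the summit and 50 bp to each side are given, with the summit at base 51. These are chrIV:4750026-4750126 at rpl-20/Y17G9B.5, chrIV:654866-654966 at rpl-15/K11H12.8, chrIII:2786006-2786106 at Y71H2AM.20/nduc-2 and chrIII:10759196-10759296 at K01G5.10/tasp-1.
rpl-20/Y17G9B.5: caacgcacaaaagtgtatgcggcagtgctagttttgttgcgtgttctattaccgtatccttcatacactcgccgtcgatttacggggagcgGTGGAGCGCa
rpl-15/K11H12.8: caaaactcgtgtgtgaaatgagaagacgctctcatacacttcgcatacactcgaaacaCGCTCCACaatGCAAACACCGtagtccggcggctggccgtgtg
Y71H2AM.20/nduc-2: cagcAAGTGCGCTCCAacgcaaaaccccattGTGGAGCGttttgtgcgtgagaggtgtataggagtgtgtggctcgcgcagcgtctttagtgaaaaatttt
K01G5.10/tasp-1: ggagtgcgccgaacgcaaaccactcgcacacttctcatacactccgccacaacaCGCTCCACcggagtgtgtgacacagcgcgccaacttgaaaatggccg
For 5 of the strongest members with at most 300 bp between the starts, the whole interval is given, from the base after the minus-strand start to the base before the plus-strand start, with no annotated exon in it. The summit lies at base 169 of 179 at ctf-4/eef-1G (chrV:10965540-10965718), at base 103 of 150 at F10E9.7/F10E9.5 (chrIII:8307442-8307591), at base 24 of 91 at ears-2/uncp-18 (chrIV:390469-390559), at base 130 of 229 at taf-11.3/urm-1 (chrIII:10505251-10505479) and at base 63 of 202 at W03F9.2/sftb-2 (chrV:128035-128236).
ctf-4/eef-1G: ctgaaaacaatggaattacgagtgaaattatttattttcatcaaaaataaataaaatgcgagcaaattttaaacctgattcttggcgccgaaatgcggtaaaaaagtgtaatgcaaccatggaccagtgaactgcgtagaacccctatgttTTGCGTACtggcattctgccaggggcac
F10E9.7/F10E9.5: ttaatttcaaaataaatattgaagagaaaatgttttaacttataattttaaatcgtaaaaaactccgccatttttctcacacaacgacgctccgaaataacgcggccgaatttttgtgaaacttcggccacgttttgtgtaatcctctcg
ears-2/uncp-18: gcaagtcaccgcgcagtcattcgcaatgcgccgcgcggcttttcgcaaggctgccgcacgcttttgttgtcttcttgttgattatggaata
taf-11.3/urm-1: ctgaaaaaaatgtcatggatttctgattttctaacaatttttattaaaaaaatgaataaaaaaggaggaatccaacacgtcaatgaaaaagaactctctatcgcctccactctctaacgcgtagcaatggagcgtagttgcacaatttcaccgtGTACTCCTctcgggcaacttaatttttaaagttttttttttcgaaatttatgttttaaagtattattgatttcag
W03F9.2/sftb-2: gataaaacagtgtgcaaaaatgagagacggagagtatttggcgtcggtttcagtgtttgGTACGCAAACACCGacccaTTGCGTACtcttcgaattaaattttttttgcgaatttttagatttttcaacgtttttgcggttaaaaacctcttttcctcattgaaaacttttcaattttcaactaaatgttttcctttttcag
At each of the 4 strongest, the word CGCTCCAC or its reverse complement GTGGAGCG stands within the 101 bases. It is 1 of the 20 words chosen at the members' own summits, and over all 612 members it stood within 50 bp at 36 (5.88%). At rps-19/hsr-9 and larp-1/wip-1, also among the 12 strongest members, none of the 20 words stood within 50 bp. At W03F9.2/sftb-2 the run beginning GTACGCAAACACC covers the summit, and GTACGCAA returns on the other strand a few bases on. The intervals at F10E9.7/F10E9.5 and ears-2/uncp-18 hold none of the 20 words. The intervals of ctf-4/eef-1G and taf-11.3/urm-1 open with the reverse complement of TTTCAG, and those of taf-11.3/urm-1 and W03F9.2/sftb-2 end with TTTCAG, so those annotated starts directly follow an acceptor-like word. The intervals of rab-18/kbp-4 and Y57E12AL.6/Y57E12AL.1 also met the rule for display and are not printed, since their summits lay outside the interval.

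The members fell at 601 distinct pairs of nearest genes, and 1246 protein-coding genes had a start in a member's window. Starts of exactly 2 genes were in the window of 569 members (93.0%), of 3 genes at 42 and of 4 genes at 1. The nearest starts stood head to head at 611 of 612. The exception was Y50D4A.4/wrb-1 on chromosome V, where the 5′ ends of the genes overlap by 55 bp and the summit lay 49 bp upstream of Y50D4A.4 and 104 bp inside wrb-1. A window that reaches 1000 bp upstream and 200 bp downstream leaves little room for any other arrangement, so the head-to-head share is set largely by the rule. The spacing of the head-to-head starts had a median of 487 bp, with quartiles of 318 and 734.5 bp and a range of 12 to 1919 bp.

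The closest pairs were F32D8.14/F32D8.5, 12 bp apart, F25H9.6/F25H9.7, 15 bp apart, Y59E9AL.36/nbet-1, 20 bp apart, and Y57E12AL.6/Y57E12AL.1, 60 bp apart. At the first of them the signal was 51.5 in replicate 1 and 99.3 in replicate 2. The widest were cnx-1/panl-3 at 1919 bp, egrh-2/lep-2 at 1831 bp, mif-4/ipla-6 at 1659 bp and hcp-4/pgk-1 at 1603 bp. cnx-1 encodes the chaperone calnexin of the endoplasmic reticulum, hcp-4 a centromere protein and pgk-1 a glycolytic kinase. At mif-4/ipla-6 the signal was 71.3 in replicate 1 and 114 in replicate 2, against 20.8 and 29.4 at egrh-2/lep-2, so wide pairs held both strong and weak peaks. Across head-to-head members, spacing and signal had a Spearman rho of -0.05 in both replicates together, 0.03 in replicate 1 and -0.07 in replicate 2 (n = 608 to 611 peaks, which share their libraries). The median signal was 80.5 at spacings of 1 to 200 bp, 95.9 at 201 to 400 bp, 87.1 at 401 to 600 bp, 86.8 at 601 to 1000 bp and 79.5 at 1001 to 2000 bp.

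Of all neighbouring autosomal protein-coding starts that stood minus then plus and at most 2000 bp apart, 2382 pairs in all, 627 had a summit of the optimal set between them (26.3%, exact 95% interval 24.6 to 28.1%). All intervals printed for shares are exact Clopper-Pearson intervals and cover counting error only. These pairs were counted without regard to the promoter window. One summit lay in 601 of them and 2 summits in 26. The share with a summit was 14.0% (9.93 to 19.1%) at spacings of 1 to 200 bp, 37.9% (33.4 to 42.6%) at 201 to 400 bp, 38.8% (33.9 to 43.9%) at 401 to 600 bp, 26.1% (22.6 to 29.9%) at 601 to 1000 bp and 16.7% (14.1 to 19.7%) at 1001 to 2000 bp. The 2 middle classes stood above the narrowest and the widest in both replicates taken alone. Taking as many of the strongest entries of each replicate as the optimal set has, the share at 201 to 400 bp was 33.3% in replicate 1 and 39.5% in replicate 2, against 12.8% and 15.7% at 1 to 200 bp and 15.9% and 17.9% at 1001 to 2000 bp. Longer intervals offer more bases, and per kilobase of interval the optimal set had 1.06 summits at 1 to 200 bp, 1.28 at 201 to 400 bp, 0.778 at 401 to 600 bp, 0.350 at 601 to 1000 bp and 0.135 at 1001 to 2000 bp.

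**Figure D1:**
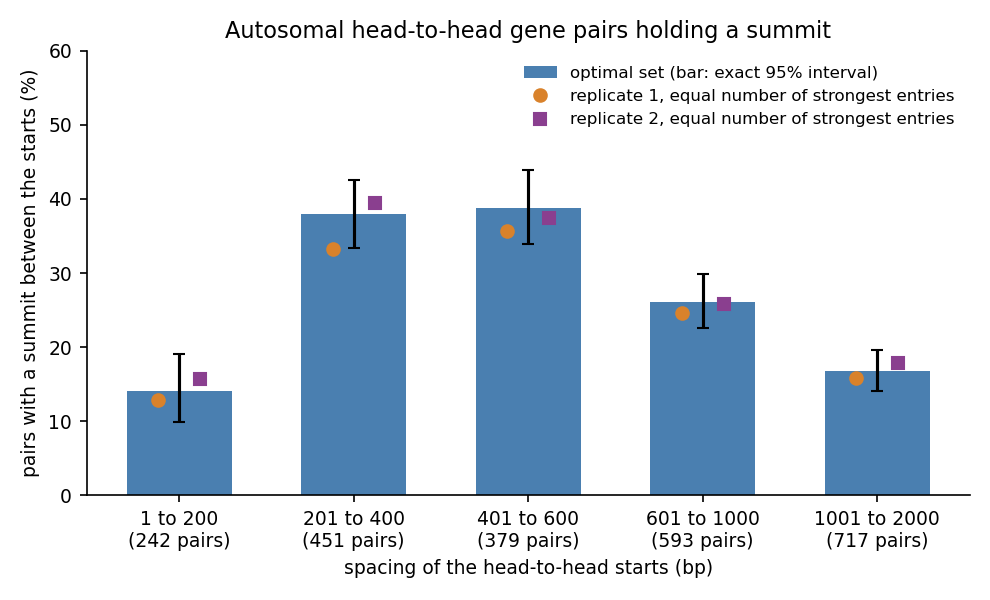
Share of autosomal head-to-head gene pairs with a summit between the starts (y axis, percent) by spacing of the starts (x axis, bp). Bars are the optimal set with exact 95% intervals, circles replicate 1 and squares replicate 2. Pairs 201 to 600 bp apart sit at 37.9 and 38.8%, against 14.0% for the closest and 16.7% for the most widely spaced pairs.

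Genes of pairs at most 1000 bp apart also had their own upstream stretch occupied more often than other genes. A summit lay within 500 bp upstream of the gene's own start at 961 of 3330 such genes (28.9%, 27.3 to 30.4%), against 755 of 13912 other autosomal genes (5.43%, 5.06 to 5.82%). One summit can count for both genes of a pair, so the genes of each class are not independent of one another. The same double counting favours a higher share in close pairs by definition, and how much of the difference it makes was not tested.

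The summit lay between the starts at 577 of the 611 head-to-head members (94.4%, 92.3 to 96.1%), in the body of the plus-strand gene at 20 and in that of the minus-strand gene at 14. The rule favours a high share here, since it admits a summit up to 1000 bp before a start but at most 200 bp after it. In both replicates taken alone the summit was between the starts at 550 of 607 members (90.6%). Its distance from the midpoint of the starts had a median of 83 bp, with quartiles of 35 and 159.75 bp, and it came within 50 bp of the midpoint at 208 members (34.0%). The summits of the 2 replicates were a median of 24 bp apart (quartiles 11 and 46.25 bp, largest 273 bp), so the distances from the midpoint were mostly larger than the error of position. The plus-strand start was the nearer at 321 of the 608 members whose summit was not equally far from both (52.8%, 48.7 to 56.8%). Which start was nearer was stable where the summit lay at least 100 bp off the midpoint, where both replicates named the same start at 260 of 264 members (98.5%). It was less so under 100 bp, where they did at 277 of 343 (80.8%).

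The nearer start was a median of 148 bp away (quartiles 75.75 and 225 bp) and the farther a median of 321.5 bp. At one-strand peaks the nearest start was a median of 245 bp away. Above 200 bp, medians of both distances were larger the wider the spacing. The median distance from the midpoint was 55.5 bp at spacings of 1 to 200 bp, 49 bp at 201 to 400 bp, 62 bp at 401 to 600 bp, 160.25 bp at 601 to 1000 bp and 249 bp at 1001 to 2000 bp. The median distance to the nearer start was 22, 96.5, 175, 214 and 393.5 bp in the same classes. Of the summits between the starts, 59.5% (51.1 to 67.4%) were in the middle of the interval, cut into 3 equal lengths, at 401 to 600 bp, against 29.4% (15.1 to 47.5%) at 1 to 200 bp, 52.6% (44.9 to 60.3%) at 201 to 400 bp, 39.5% (31.9 to 47.5%) at 601 to 1000 bp and 45.2% (32.5 to 58.3%) at 1001 to 2000 bp. At the narrowest spacings the summit lay between the starts at only 34 of 53 members. The window itself bounds the place of the summit at spacings over 1000 bp, because both starts must be within reach.

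**Figure D2:**
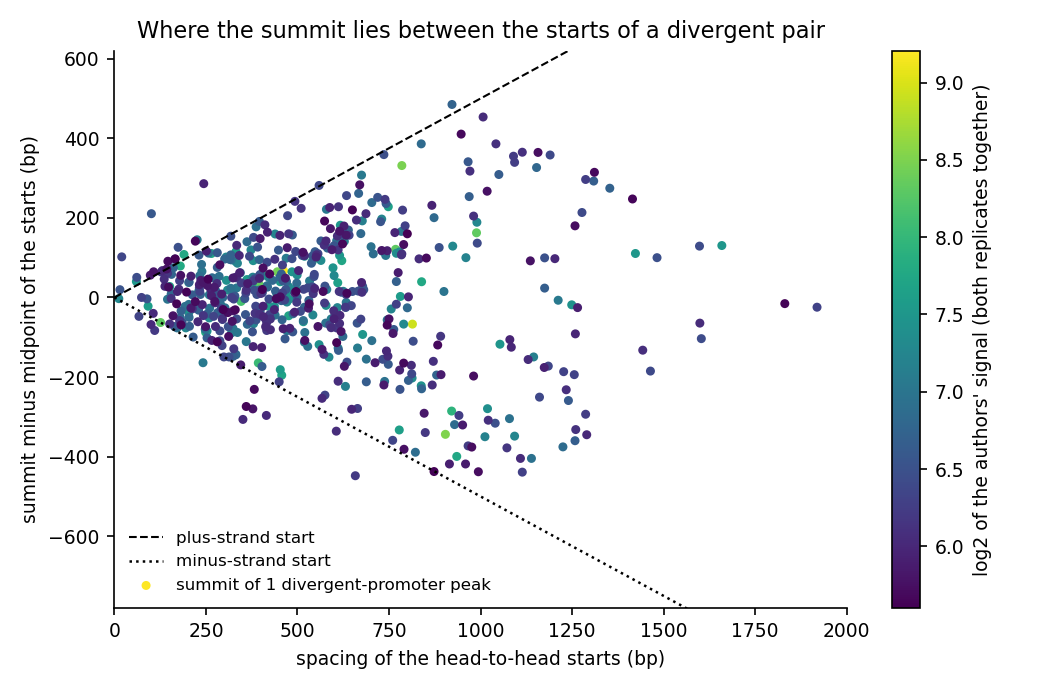
Summit minus midpoint of the starts (y axis, bp) against spacing of the starts (x axis, bp) for the 611 head-to-head members, each point 1 peak coloured by log2 of the authors' signal. The dashed and dotted lines are the plus-strand and minus-strand starts, and 577 points lie between them, with a median distance of 83 bp from the midpoint.

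Signal was higher at the members than at one-strand peaks in the optimal set and in both replicates. The median was 88.1 at members (quartiles 65.7 and 122), against 70.3 at one-strand peaks (57.8 and 95.6) and 62.1 at peaks outside promoters. In replicate 1 the medians were 35.2 at members and 28.9 at one-strand peaks, and in replicate 2 they were 55.6 at members and 45.3 at one-strand peaks. Members minus one-strand peaks, this came to a difference of 0.32 in log2 of the median for both replicates together, 0.28 in replicate 1 and 0.30 in replicate 2. In the upper 50% of the optimal set by signal the difference was 0.18. Over all peaks, the replicates gave the difference the same sign and nearly the same size, but with 1 group of 2 samples no test across samples can be made. The quartile ranges of the classes overlapped, and the strongest autosomal promoter peak of all was a one-strand peak of signal 2453, against 591 at the strongest member. The autosomal promoter peaks were ranked by signal and cut into 5 equal groups, and from the strongest to the weakest 55.8, 47.7, 38.9, 34.2 and 25% were members.

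**Figure D3:**
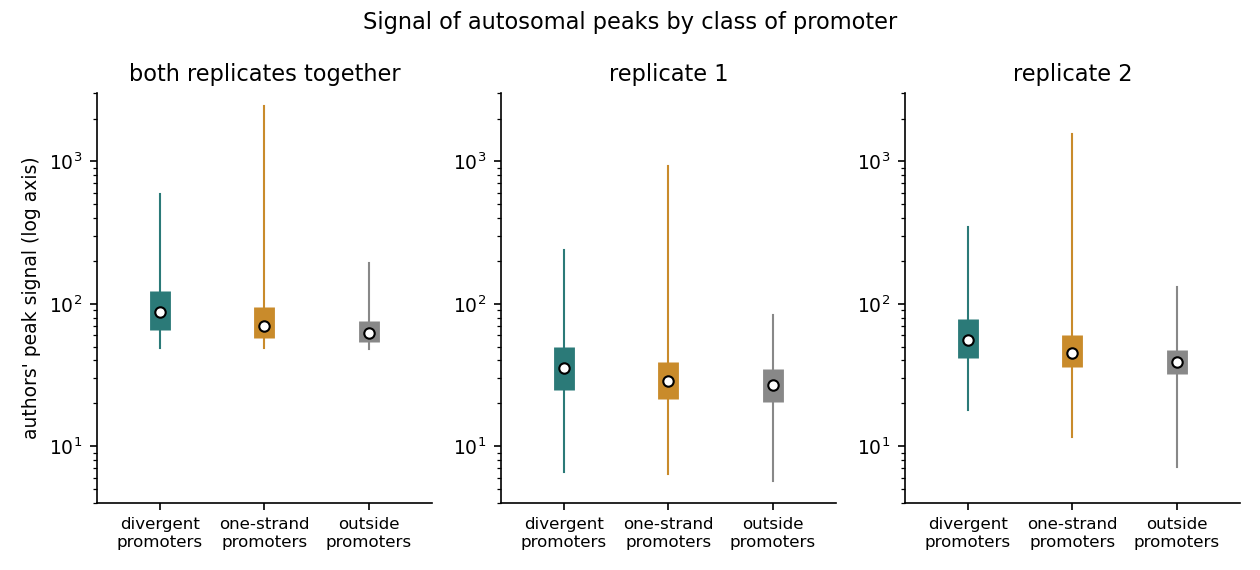
Authors' peak signal (y axis, log scale) of autosomal peaks in divergent promoters, in one-strand promoters and outside promoters, for both replicates together and in the strongest overlapping entry of each replicate. White points are medians, bars quartiles and lines the full range. The medians at divergent promoters, 88.1, 35.2 and 55.6, are above those at one-strand promoters, 70.3, 28.9 and 45.3.

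Members were also found again in each replicate more often. The strongest 2409 entries of both replicates overlapped 471 of 612 members (77.0%, 73.4 to 80.2%), against 556 of 906 one-strand peaks (61.4%, 58.1 to 64.6%), 51.6% of peaks outside promoters and 62.8% of the whole optimal set. Signal bears on this share, since stronger peaks rank higher in each replicate, and its part was not tested. Across the 608 members with an entry in both replicates, log2 signal in replicate 1 and in replicate 2 had a Pearson r of 0.68 and a Spearman rho of 0.67. At one-strand peaks these were 0.59 and 0.46, and outside promoters 0.20 and 0.16. The signals of the 2 replicate lists are not on a common scale, since depth is unknown. The log2 ratio of replicate 2 to replicate 1 had a median of 0.70 at members (quartiles 0.38 and 1.07), against 0.68 at one-strand peaks and 0.66 over the whole optimal set, an offset that the lists share. The commonest width in the optimal set was 350 bp, which 137 members fell short of (22.4%), against 11.5% of one-strand peaks, and no member was wider.

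The strongest member lay at rpl-20/Y17G9B.5 on chromosome IV, with a signal of 239 in replicate 1, 347 in replicate 2 and 591 in both together. rpl-20 encodes a protein of the large ribosomal subunit, and the summit lay 298 bp upstream of it and 164 bp upstream of Y17G9B.5. The second was rpl-15/K11H12.8, also on chromosome IV, with 176 in replicate 1 and 311 in replicate 2. The summit there was 340 bp upstream of rpl-15, another large-subunit gene, and 474 bp upstream of K11H12.8. On chromosome III, Y71H2AM.20/nduc-2 had 129.9 and 241 in replicates 1 and 2, with the summit 108 bp from Y71H2AM.20 and 796 bp from nduc-2. K01G5.10/tasp-1 had 153 and 203, with the summit 724 bp from K01G5.10 and 61 bp from tasp-1, which encodes a threonine aspartase homologue.

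Of the 12 strongest members, 7 had a cytosolic ribosomal protein gene as a nearest gene, against 42 of all 612 members (6.86%), a count made after the values were seen. Besides rpl-20 and rpl-15 these were rps-19/hsr-9, rps-20/ekl-4, ifet-1/rps-1, ska-3/rps-12 and rpl-12/lin-54. The partners have other roles: hsr-9 encodes a 53BP1-like protein, ifet-1 a translational repressor that binds the cap-binding protein, ska-3 a component of the spindle attachment at kinetochores and lin-54 the DNA-binding subunit of the DRM complex. Their signals in replicates 1 and 2 were 139 and 213 at rps-19/hsr-9, 125 and 210.0 at rps-20/ekl-4, 135 and 180.2 at ifet-1/rps-1, 118 and 180.1 at ska-3/rps-12 and 126 and 138 at rpl-12/lin-54. The 3 others of the 12 not yet named were larp-1/wip-1, with 135 and 189, rab-18/kbp-4, with 139.9 and 186, and drr-2/set-16, with 113 and 165. larp-1 encodes an RNA-binding protein, rab-18 a small GTPase, kbp-4 a kinetochore protein and set-16 a histone methyltransferase. At rab-18/kbp-4 the summit fell on the rab-18 start itself, 126 bp upstream of kbp-4, and par-2, a cell polarity gene, also had its start in the window.

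The tagged gene was among the members. At W03F9.2/sftb-2, on chromosome V, the signal was 60.6 in replicate 1, 118 in replicate 2 and 174 in both together, the 58th highest of the 612. The summit lay between the starts, which are 203 bp apart. The strain carries a transgene with the tagged gene besides the chromosomal copy, and the part of the transgene's own DNA in this signal was not tested.

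The lists of genes below were drawn by symbol, and each is set against 7.23% of all 17242 autosomal protein-coding genes and 25.2% of the 4764 genes in head-to-head pairs that had a start in a member's window. Among the genes of the protein synthesis machinery, 44 of 79 cytosolic ribosomal protein genes did (55.7%, 44.1 to 66.9%). Of those 79, 49 stood in head-to-head pairs, and 44 of the 49 were at members (89.8%). Proteasome subunits had 18 of 33 (54.5%) and 18 of 22 in pairs, translation factors 15 of 36 (41.7%) and 15 of 20 in pairs, and splicing factors and RNPs 20 of 44 (45.5%) and 20 of 25 in pairs. The shares were 35% for chaperones (21 of 60) and for nuclear pore and transport genes (14 of 40), 32.2% for the respiratory chain (19 of 59), 28.1% for aminoacyl-tRNA synthetases (9 of 32) and 24.1% for the mitochondrial ribosome and import (20 of 83). All 9 of these lists stood above the shares of all genes and, within pairs, above that of all genes in pairs, with 55.9 to 89.8% of their pair genes at members. Genes of these lists also had starts in the windows of one-strand peaks. The shares there were 29.1% for cytosolic ribosomal proteins, 25% for translation factors, 21.2% for proteasome subunits and 11.4% for splicing factors and RNPs. In each of the 9 lists the one-strand share was below the share at members. In all, 257 members (42.0%) had a nearest gene in at least 1 of the 22 lists and 39 had both.

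Lists of the nucleus, the cell cycle and traffic held shares of 15.9 to 28.0%, also above the 7.23% of all genes, although the interval of the vacuolar ATPase included it. They were 28.0% for DNA repair (7 of 25), 27.2% for vesicle traffic (22 of 81), 26.1% for germline and small RNA factors (18 of 69), 21.0% for cell cycle and replication (13 of 62), 18.7% for chromatin regulators (14 of 75), 18.5% for RNA polymerase, TAF and Mediator (12 of 65), 17.6% for the vacuolar ATPase (3 of 17, 3.8 to 43.4%) and 15.9% for the ubiquitin system (10 of 63). The cell cycle and replication list was at 13 members in the optimal set and at 8 in replicate 1 alone. The remaining lists stood below 7.23%, with intervals that included it for histones and homeobox genes. Histones had 3 of 76 (3.95%, 0.822 to 11.1%) although 63 of them stand in head-to-head pairs, so that 4.76% of their pair genes were at members, against 25.2% of all pair genes. Many replication-dependent histone genes are near-identical copies, and how the authors' mapping treated reads from copies was not analysed here. The members at histone genes were his-67/his-68, with a signal of 36.5 in replicate 1 and 51.9 in replicate 2, and wapl-1/htz-1, with 95.1 and 109. htz-1 encodes the variant H2A.Z and wapl-1 a factor that releases cohesin. Nuclear hormone receptors had 5 of 246 (2.03%, 0.663 to 4.68%), collagens 2 of 129 (1.55%, 0.188 to 5.49%) and chemoreceptors 6 of 1276 (0.470%, 0.173 to 1.02%). Homeobox ceh genes had 1 of 45 (2.22%, 0.0562 to 11.8%), with 2 members in replicate 1 alone, 3 in replicate 2 alone and 0 where the window had no bases downstream. Partners of some of these were in other lists, as at col-38/rpl-5, where a collagen gene faces a ribosomal protein gene and the signal was 71.1 in replicate 1 and 148 in replicate 2. One-strand peaks had higher shares than the members for the vacuolar ATPase (29.4%), the ubiquitin system (17.5%) and nuclear hormone receptors (3.25%). Their shares were equal for chromatin regulators (18.7%) and collagens (1.55%), and lower for the other lists of this paragraph. These shares too stand without that of all genes at one-strand peaks.

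**Figure D4:**
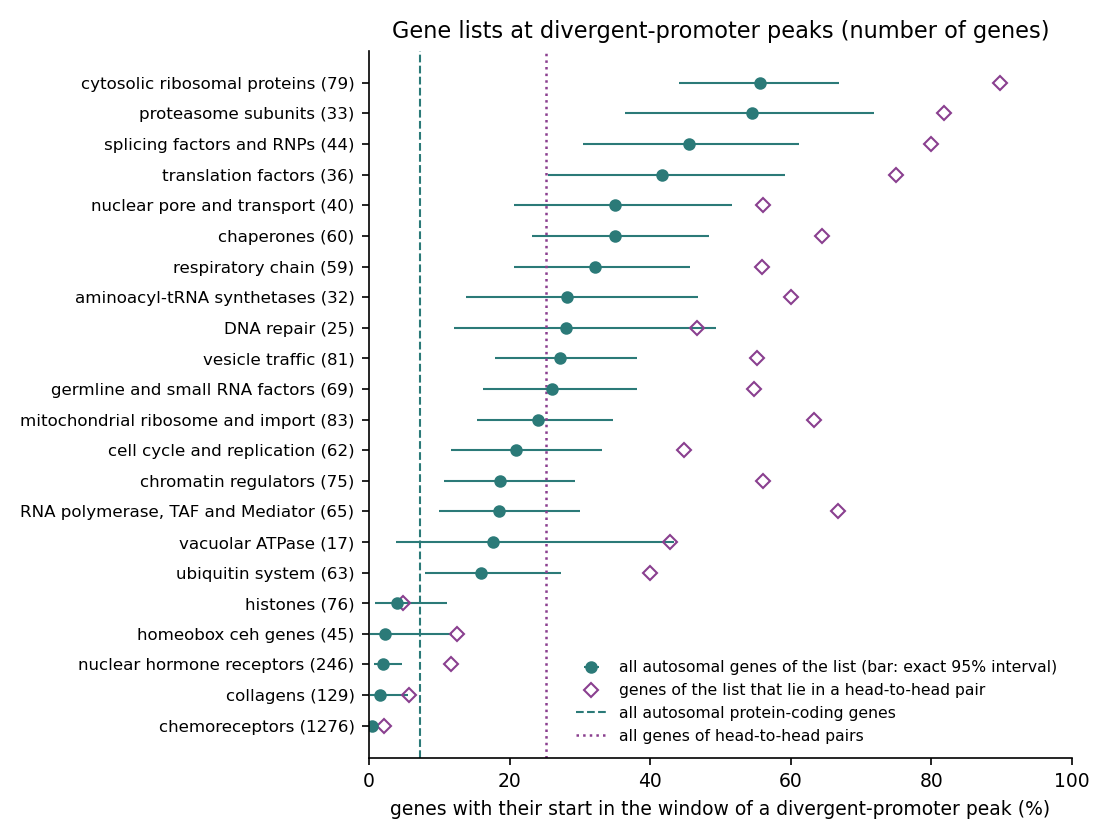
Share of the genes of 22 lists with their start in the window of a divergent-promoter peak (x axis, percent), for all autosomal genes of a list (circles, exact 95% intervals) and for its genes in head-to-head pairs (diamonds). The dashed line is 7.23% of all autosomal protein-coding genes and the dotted line 25.2% of all genes in pairs. Ribosomal protein and proteasome genes are highest, at 55.7 and 54.5%, and chemoreceptors lowest, at 0.470%.

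Few members had both genes in the same list. For ribosomal proteins these were rps-10/rpl-24.1, rpl-39/rps-30 and rps-14/rpl-36, for splicing factors rsp-2/rsp-1, both of which encode SR proteins, and snr-3/rsp-5, for cell cycle and replication orc-5/cyb-1, for histones his-67/his-68, and for chaperones hsp-16.2/hsp-16.41. At rps-10/rpl-24.1 the signal was 70.5 in replicate 1 and 136 in replicate 2. At rpl-39/rps-30 it was 40.7 and 65.8, with the summit 250 bp from one start and 249 bp from the other. At rps-14/rpl-36 it was 51.9 and 38.4. At rsp-2/rsp-1 it was 90.5 in replicate 1 and 114 in replicate 2. hsp-16.2/hsp-16.41 encodes a pair of small heat shock proteins; it had 35.2 and 39.9, but the summits of the replicates stood 272 bp apart, so the place of the summit is not settled there.

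The summit did not always favour the gene of the list. At the 39 members with a ribosomal protein gene on 1 side, the partner's start was the nearer at 27 and the ribosomal protein gene's at 12. The median distance was 304 bp from the ribosomal protein gene and 189 bp from the partner, and both replicates had the partner nearer at 25 and the ribosomal protein gene nearer at 13. Chaperones were alike in this count, with the partner nearer at 14 of 19 members and at 13 in both replicates, and so were nuclear pore and transport genes, with 11 of 14 and 10. Median distances from the list gene and the partner were 256 and 240 bp for chaperones, and 295 and 187 bp for nuclear pore and transport genes. For proteasome subunits the list gene was the nearer at 11 of 18, but both replicates had it nearer at 8 and the partner nearer at 7, with median distances of 217.5 and 222.5 bp. For translation factors the list gene was the nearer at 9 of 15, and at 9 in both replicates, with the partner nearer in both at 6.

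Other strong members at genes of the lists, each among the 3 highest of its list by signal, included eef-1A.1/rfc-4, where a translation elongation factor faces a subunit of the clamp loader of DNA replication, with 93.8 in replicate 1 and 137 in replicate 2. hsp-110/rpn-3, a chaperone gene and a proteasome lid gene, had 90.9 and 130.4, with the summit 229 bp from the first and 215 bp from the second. cct-8/Y55F3AR.2, with a chaperonin subunit, had 85.3 and 131. atp-3/F27C1.2, with a subunit of the mitochondrial ATP synthase, had 95.6 and 131, and mcrs-1/atp-1, with another, had 111 and 110.3. lin-53/nra-2, in which lin-53 encodes a histone-binding protein, had 84.9 and 151. imb-1/mfsd-13.1, with importin beta, had 68.2 and 119, and taf-11.3/urm-1 had 69.5 and 111.

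Annotated starts at the members directly followed an acceptor-like word more often than those of pairs with no summit. Of the 1202 nearest genes of members, 321 had TTTCAG in the 6 bases before the start (26.7%, 24.2 to 29.3%) and 600 had AG in the last 2 (49.9%, 47.1 to 52.8%). Of 3442 genes in head-to-head pairs with no summit between the starts, 266 had TTTCAG (7.73%, 6.86 to 8.67%) and 631 had AG (18.3%, 17.1 to 19.7%), and of all 17242 autosomal genes 12.3% and 27.7% did. One-strand peaks were like the members, with 25.8% and 49.6% of 893 nearest genes. Summits lay farther upstream of such starts, by a median of 243.5 bp for starts after AG and 176 bp for other starts of the head-to-head members. Where 1 of the 2 starts followed AG, the summit was nearer to the other start at 212 of 315 members (67.3%, 61.8 to 72.5%). Both starts followed AG at 146 members, whose median spacing was 548.5 bp, and neither did at 149, whose median spacing was 391 bp.

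The DNA under the summits was rich in G and C between flanks that were poor in them. In 25-bp steps, G + C at members was 48.0 and 48.3% on the 2 sides of the summit, 28.6% at 100 to 125 bp to either side and 38.3 to 38.5% at 475 to 500 bp. At one-strand peaks it was 46.5 and 46.3% at the summit and 31.6 and 31.9% at 100 to 125 bp. The 20 words of 8 bases were chosen by their share within 50 bp of members' summits over their share 200 to 300 bp away, so their values at members are a description. The commonest were GCAAACAC, at 10.6% of summits and 0.408% of flanks, GCGAGACC, at 9.80 and 0.408%, CGAGACCC, at 9.15 and 0.408%, and AAAGGCGC, at 7.84 and 0.654%. Several overlap, as GCGAGACC and CGAGACCC do. One-strand peaks played no part in the choice, and there GCAAACAC was at 7.73% of summits and 0.607% of flanks and GCGAGACC at 5.96 and 0.276%.

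**Figure D5:**
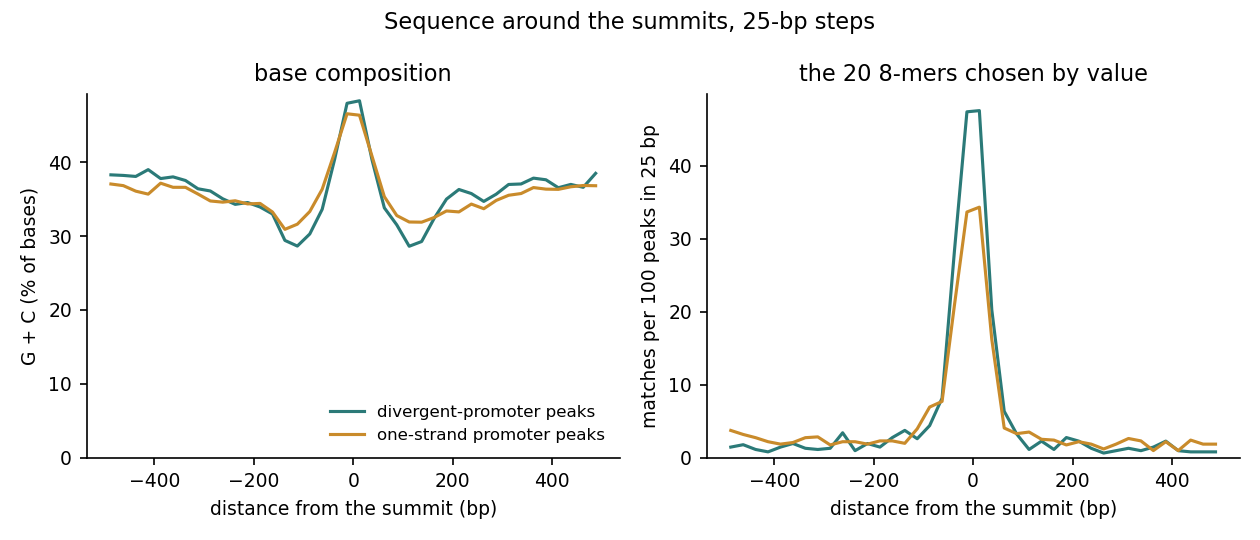
G + C content (left, percent) and matches to the 20 words of 8 bases chosen by value (right, matches per 100 peaks in 25 bp) against distance from the summit (x axis, bp), for divergent-promoter peaks and one-strand peaks. G + C at divergent-promoter peaks reaches 48.3% beside the summit and 28.6% at 100 to 125 bp to either side.

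Within 100 bp of the summit, at least 1 of the 20 words stood at 413 of 612 members (67.5%, 63.6 to 71.2%), against 513 of 906 one-strand peaks (56.6%, 53.3 to 59.9%). Windows of the same length held one at 14.7% of all autosomal promoters, centred 150 bp upstream of the start, and at 15% of the midpoints of head-to-head pairs without a summit. Since the words were chosen at the members' own summits, the choice itself favours a higher share at members than in any other class. The size of that part was not tested. The median signal of members was 90.3 with such a word and 84.0 without, 35.3 and 34.98 in replicate 1 and 56.8 and 51.97 in replicate 2. Over the 20 words, the median signal of members with the word ran from 78.5 to 108, on both sides of that of members without it. CGCTCCAC is named as the word at the top of that range, chosen after its value was seen. Members with CGCTCCAC, 40 in number, had a median signal of 108, against 86.7 at the rest, and 39.8 against 34.7 in replicate 1 and 72.5 against 54.9 in replicate 2. For GCAAACAC, the commonest word, the difference went the other way, with 83.5 at the 72 members that had it and 89.0 at the rest. The words were searched on both strands, and a match is not a site.

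The word GAGACGCAG, searched on both strands, was less frequent at members than at one-strand peaks and more frequent at both than at promoters in general. It stood within 100 bp of the summit at 42 of 612 members (6.86%, 4.99 to 9.16%), against 112 of 906 one-strand peaks (12.4%, 10.3 to 14.7%), 2.48% of all autosomal promoters and 1.25% of midpoints of pairs without a summit. Its shorter form AGACGCAG was at 5.39% of members' summits and 10.3% of one-strand summits within 50 bp. GAGAGAGA was likewise at 3.92% of members and 6.62% of one-strand peaks, against 2.59% of all promoters, with intervals of 2.53 to 5.78% and 5.09 to 8.44% that overlapped. GGGCGG stood at 11.6% of members, 7.84% of one-strand peaks and 5.50% of all promoters, and TTCGCGC at 7.52, 6.73 and 1.63%. TGATAA was scarcer at members than at promoters in general, at 11.9% of members, 15.5% of one-strand peaks and 22.1% of all promoters, and TATAAA at 17.5, 18.5 and 25.9%, beside the higher G + C at summits. CACGTG stood at 3.27% of members and 4.05% of all promoters, and CCAAT at 28.4 and 32.7%. TTTCAG stood at 27.6% of members and 29.4% of all promoters, and a run of at least 8 T, or 8 A, at 22.9 and 25.3%.

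Non-coding genes lay in the interval between the starts at 87 of 611 head-to-head members (14.2%), against 12.6% of all 2382 pairs. Most were of the annotation's general class of non-coding RNA, at 76 members (12.4%) and 7.93% of all pairs. piRNA genes went the other way, at 7 members (1.15%) and 2.52% of all pairs. Transfer RNA genes lay there at 4 members (0.655%) and 0.504% of all pairs. snoRNA, snRNA, microRNA and antisense RNA genes lay there at 2 members each (0.327%), against 0.378, 0.21, 0.42 and 0.294% of all pairs. Members with a non-coding gene had a median signal of 102, against 85.7 without. Pseudogenes lay in the interval of 30 pairs and of 0 members.

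The pairs that held members differed by chromosome. A summit lay between the starts at 36.7% of head-to-head pairs on chromosome I (157 of 428), 20.4% on II (95 of 466), 40.3% on III (155 of 385), 25.7% on IV (113 of 440) and 16.1% on V (107 of 663). Members were 42.8, 34.9, 43.4, 39.3 and 39.5% of the promoter peaks of the same chromosomes, which are 158, 96, 148, 108 and 102 peaks. On the X chromosome, which the rule leaves out, 17 of 145 promoter peaks had starts on both strands (11.7%, 6.98 to 18.1%). Head-to-head pairs were counted on the autosomes only, so the part of gene arrangement in the X share was not tested. Median signal at members ranged from 84.2 on chromosome I to 95.8 on chromosome III in both replicates together. In replicate 1 it ranged from 30.03 on V to 37.02 on II, and in replicate 2 from 51.9 on I to 56.9 on III.

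Some pairs held 2 members. At ecps-1/atx-2, where atx-2 encodes the ataxin-2 homologue, the peaks had 69.8 and 59.1 in replicate 1 and 94.0 and 58.0 in replicate 2. The stronger summit lay 197 bp from ecps-1 and the weaker 33 bp from atx-2. At W03C9.5/mex-1, in which mex-1 encodes a CCCH zinc finger protein of the early embryo, they had 56.3 and 39.2 in replicate 1 and 99.6 and 35.4 in replicate 2, 198 bp from W03C9.5 and 207 bp from mex-1. So in both pairs each gene had a summit of its own near by, and the summit by the minus-strand gene was the stronger in both replicates. At F29B9.11/jmjd-1.2 and cogc-2/klp-18 both peaks overlapped the same strongest entry of each replicate, and no second value per replicate is given. In all, 10 members shared their entry with another member.

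Some members stood far from the median log2 ratio of 0.66 that the whole optimal set had between the replicate lists. The log2 ratio of replicate 2 to replicate 1 was highest at bud-13/rpap-2, with 47.9 in replicate 2 and 6.59 in replicate 1, T24G10.2/disl-2, with 49.7 and 7.03, and Y92H12BR.2/Y92H12BR.3, with 45.9 and 6.87. It was lowest at rec-8/mex-5, with 18.0 in replicate 2 and 39.9 in replicate 1, hel-1/C26D10.4, with 21.8 and 39.99, and evl-14/dcn-1, with 24.9 and 43.2. rec-8 encodes the meiotic cohesin subunit and mex-5 a polarity factor of the embryo. In both replicates together these 6 had signals of 53.5 to 69.9, below the members' median of 88.1. The weakest members, ugt-12/T19H12.2 at 49.0, prp-4/dhfr-1 at 48.8 and F26E4.4/cox-7C at 48.6, had 24.4, 18.7 and 14.8 in replicate 1 and 24.2, 27.6 and 31.1 in replicate 2.

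At the edge of the rule, the members with the farthest start inside the window were usp-14/vnut-1, 996 bp from vnut-1, idha-1/lmd-1, 990 bp from lmd-1, and R107.5/cls-2, 989 bp from cls-2, with signals of 77.8, 64.4 and 101. Just outside were one-strand peaks at C50B6.3, 1005 bp from nasp-2, at mys-1, 1007 bp from VC5.2, and at C35B1.5, 1008 bp from C35B1.2, with signals of 103, 73.9 and 49.2. Just below the authors' threshold on signal, the pooled list before that threshold had entries in divergent promoters at F13A7.11/F13A7.12 with 48.5, B0336.12/rbm-26 with 48.4 and Y55F3AM.13/mrps-25 with 48.2.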

How the data were processed

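ChIP-seq of the eGFP-W03F9.2 fusion was analysed in 2 replicates of 1 group of whole worms. The authors deposited peak lists in narrowPeak form, in which each peak has a signal, never negative and on a scale that is not stated, and the offset of its summit in bp. Peaks were called on ce11 alignments against a control alignment, per the deposited notes. Which aligner and peak caller made them is not given in the sources used here. Before the IDR threshold, the list for both replicates together and the lists for each replicate hold 30000 entries each, and the optimal set is the 2409 entries of highest signal of the joint list. The lists made on ce10 were not used here. Read depths are unknown, so classes of peaks were compared within a list, and the ratio between the replicate lists is given beside that of the whole optimal set.

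Gene starts were taken from the Ensembl 115 annotation of WBcel235, with 1 start a gene, and sequences from RefSeq. The signal of a peak in a replicate is that of the strongest entry overlapping it by at least 1 bp, and 10 members shared that entry with another. Head-to-head pairs are neighbouring protein-coding starts, minus then plus, at most 2000 bp apart. Shares carry exact Clopper-Pearson 95% intervals, and no p-value is given, since peaks are not replicates and there is 1 group. Words of 8 bases were ranked by their share within 50 bp of the summit over that 200 to 300 bp away, and the 20 highest kept. Motifs were searched on both strands within 100 bp. Peaks planted in simulated data were used to check the class of peaks, the spacing of starts and the place of summits. They also checked the matching of overlapping entries and the finding of head-to-head pairs. The steps on words, base composition and gene lists were not checked in this way. Python 3.11.15, numpy 2.4.6, pandas 2.3.3, scipy 1.17.1 and matplotlib 3.10.9 were used.

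The members and lists were chosen with earlier results of these data known, and the symbol pattern of the chemoreceptor list was corrected after values were seen. Genes were named by rule: the 12 members of highest signal, the 4 closest and 4 widest pairs, the 4 pairs with most peaks, members not head to head, pairs with both genes in 1 list, the 3 highest of each list, the 3 highest and 3 lowest ratios of the replicates, and the 3 at each edge. The tagged gene's pair and the 4 summit windows were added to this. The sequence of 1 further interval is not reported here. Alternatives were other promoter windows, the peak's middle for its summit, the upper 50% of the peaks by signal, all transcripts' starts, other overlap and motif windows, and each replicate alone.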

Additional observations from a re-analysis of the deposited data

How the results depend on the processing

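The log2 difference of median signal, the only result checked for a change of direction, kept its sign under every alternative. Its size moved beyond the limit given below under each of them, with values from 0.18 to 0.34. That limit was narrow, since each replicate alone gave 0.27. The number of members stayed within 1.5 times of 612, from 414 in the upper 50% of the optimal set by signal to 701 with a window of 1500 bp upstream. Of the values of the main results under the alternatives, 76 stayed within set limits and 28 moved beyond them. Some of the 76 could move little or not at all. The share of pairs with a summit does not use the promoter window, so other windows left it the same. The peak's middle was the summit itself at 478 of 612 members (78.1%). Limits were 1.5 times for counts, the exact 95% interval for shares and the SD between the 2 replicates alone for other values. Contrasts between classes in words, acceptor-like starts and non-coding genes were not rerun. With 500 bp upstream, members were 33.8% of autosomal promoter peaks, the median spacing was 396 bp, the distance from the midpoint 55.5 bp, the distance to the nearer start 136 bp and the log2 difference of median signal from one-strand peaks 0.34. With 1500 bp these were 43.4%, 554 bp and 99.8 bp, and the log2 difference was 0.33. With no bases downstream, 100% of members were head to head, 99.3% had the summit between the starts, the distance from the midpoint was 80 bp and the log2 difference 0.32. That window admits no summit past either start, so it sets the first 2 of these values by itself. In that upper 50%, members were 47.6% of promoter peaks, the distance from the midpoint was 76.5 bp, the median signal 108, the log2 difference 0.18, the share of pairs with a summit 18.1% and the share found in both replicates 95.2%. The log2 difference was 0.33 with the peak's middle and 0.34 with all transcripts' starts. Of the counts of members at single lists under these alternatives, 161 stayed within 1.5 times and 15 did not, mostly small lists in the upper 50% by signal or with 500 bp upstream. GAGACGCAG stood within 50 bp at 4.41% of members. Each replicate alone gave 567 to 621 members, 82.5 to 86.5 bp from the midpoint, a median signal of 37.1 to 54.9, a log2 difference of 0.27 in both and 24.2 to 26.8% of pairs with a summit. The spacing and the distances follow the window, which sets how far apart the starts of a member can be. No paired analysis was possible because there is only 1 group. Unknown depth and 2 replicates limit the precision of every value of signal.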
